A study of Mus musculus with 8 samples.

Results

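The genes described here encode proteins of mitosis and chromosome segregation in mouse macrophages, and 44 of the 45 genes listed were measured. They were chosen by name for their role in cell division, through the symbols of the array annotation. Earlier results of these data were known at that choice, so that counts over these genes are descriptions. Where a gene had several probe sets, the probe set with 1 symbol and the highest mean over the 8 arrays was used. The annotation used here lists no probe set for Ccnb1, the cyclin B1 gene, which was not analysed here. The 44 genes lie on 16 chromosomes and were part of a table of 19938 tested genes.

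Macrophages of C57BL/6J mice were collected from the peritoneal cavity 5 days after thioglycollate was injected; this broth irritates the cavity and draws monocytes into it. They were then kept in culture medium with serum. The 4 unloaded arrays came from cells without an added agent, and the 4 acLDL arrays from cells given acetylated low-density lipoprotein (acLDL), a chemically altered lipoprotein taken up by scavenger receptors. The sample protocols state 20 µg/mL acLDL and 3 days of culture, whereas the series description states 50 µg/mL and 2 days, so dose and time are not settled. The series description calls the 4 cultures of a condition independent biological replicates. The labels give no age and do not say which mice went into which culture.

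A dividing cell first raises cyclin-dependent kinase activity, then condenses its chromosomes, attaches them to spindle microtubules at kinetochores, and holds anaphase back until all are attached. The anaphase-promoting complex then marks cyclins and the inhibitor of separase for destruction, the sister chromatids part and the cell is cut into daughter cells. Transcripts of these proteins are known to peak in G2 and M phase. They are driven by the MuvB, B-Myb and FoxM1 factors acting through a promoter element called CHR, and by a further factor that binds the CCAAT box. Thioglycollate-elicited macrophages in culture are known as cells of which few divide.

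RefSeq promoter windows of assembly GRCm38.p6, from 250 bases before to 50 bases after the start of a gene, were at hand for 37 of the 44 genes as 39 windows. The CHR element was searched as the letters TTTGAA and in its second known form TTCGAA, and the CCAAT box by the letters of its name, each on both strands and without overlap between them. CHR letters were in 32 of the 39 windows (82.1%), against 6316 of 32851 promoters of the same length in the table (19.2%). CCAAT letters were in 29 of the 39 windows (74.4%) and in 37.4% of all promoters. Both motifs stood together in 28 of the 39 windows (71.8%) and in 7.52% of all promoters, and 18 windows (46.2%, against 11.7%) held at least 2 CCAAT boxes. E2F-like letters, searched on both strands as TTTCCCGC, as the variant TTTGGCGC and as the further variant TTTCGCGC, were in 4 windows (10.3%), those of Cdk1, Kif15, Ncapd2 and Ncapg, and in 1.84% of all promoters. A match is a description of letters and shows no bound factor.

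The 6 windows below belong to the genes with the largest differences among those that had CHR letters in their window, passed the test described below and had groups without overlap. They show how the motifs lie in genes that differed with acLDL. Capitals mark CHR letters and CCAAT boxes, on either strand, and all are read 5′ to 3′ on the strand of the gene.
Top2a, chr11:99024140-99024439, minus strand: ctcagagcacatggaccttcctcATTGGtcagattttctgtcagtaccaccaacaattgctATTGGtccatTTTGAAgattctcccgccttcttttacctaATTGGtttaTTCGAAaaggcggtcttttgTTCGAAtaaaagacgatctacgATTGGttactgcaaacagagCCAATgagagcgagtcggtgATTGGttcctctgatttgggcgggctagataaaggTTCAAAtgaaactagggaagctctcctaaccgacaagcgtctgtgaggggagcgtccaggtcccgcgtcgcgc
Anln, chr9:22389157-22389456, minus strand: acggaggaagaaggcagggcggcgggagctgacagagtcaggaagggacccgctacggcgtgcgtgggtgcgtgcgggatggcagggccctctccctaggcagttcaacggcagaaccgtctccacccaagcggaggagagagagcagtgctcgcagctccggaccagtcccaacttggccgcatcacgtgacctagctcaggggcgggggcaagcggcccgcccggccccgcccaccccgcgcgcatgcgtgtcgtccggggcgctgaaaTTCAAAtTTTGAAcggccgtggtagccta
Mki67, chr7:135716330-135716629, minus strand: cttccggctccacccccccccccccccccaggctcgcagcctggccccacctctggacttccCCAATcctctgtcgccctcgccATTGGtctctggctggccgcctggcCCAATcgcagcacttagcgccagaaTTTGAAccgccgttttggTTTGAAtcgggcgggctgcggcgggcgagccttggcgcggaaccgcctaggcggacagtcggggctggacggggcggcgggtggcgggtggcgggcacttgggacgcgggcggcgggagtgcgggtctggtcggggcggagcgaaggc
Bub1b, chr2:118597961-118598260, plus strand: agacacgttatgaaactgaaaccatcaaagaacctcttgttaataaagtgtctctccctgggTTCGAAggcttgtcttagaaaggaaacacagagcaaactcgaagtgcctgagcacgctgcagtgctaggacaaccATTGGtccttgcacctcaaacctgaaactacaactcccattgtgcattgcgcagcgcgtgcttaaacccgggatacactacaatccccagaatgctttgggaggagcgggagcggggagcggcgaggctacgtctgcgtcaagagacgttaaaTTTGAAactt
Kif22, chr7:127042371-127042670, minus strand: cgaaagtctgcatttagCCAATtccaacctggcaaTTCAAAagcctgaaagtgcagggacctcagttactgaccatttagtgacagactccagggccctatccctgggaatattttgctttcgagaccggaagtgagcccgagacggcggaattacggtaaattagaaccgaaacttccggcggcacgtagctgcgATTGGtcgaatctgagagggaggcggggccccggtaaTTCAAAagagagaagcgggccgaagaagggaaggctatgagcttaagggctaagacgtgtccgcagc
Plk1, chr7:122159185-122159484, plus strand: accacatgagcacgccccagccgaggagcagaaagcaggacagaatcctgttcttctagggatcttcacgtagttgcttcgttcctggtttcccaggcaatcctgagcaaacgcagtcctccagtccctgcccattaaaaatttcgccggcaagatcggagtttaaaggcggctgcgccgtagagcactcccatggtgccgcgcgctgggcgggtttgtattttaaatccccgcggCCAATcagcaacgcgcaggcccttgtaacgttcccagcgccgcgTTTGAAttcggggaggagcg

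The Top2a window held 4 CHR matches and 6 CCAAT boxes, and the Mki67 window 2 and 3. In Anln both CHR matches began after the start, at positions 22 and 29, and no CCAAT box was found in the window. The Plk1 window had a CCAAT box at position -14 and a CHR match at 31. The median log2 difference was 0.26 in the 30 genes with CHR letters and 0.26 in the 7 without, and 18 of the 30 and 4 of the 7 passed the test as higher.

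Mitosis genes were higher in acLDL-loaded cells, by small amounts. Differences are given as acLDL minus unloaded on the log2 scale of the deposited values, and a gene was called where limma's Benjamini-Hochberg adjusted p over all 19938 genes was under 0.05. Of the 44 genes 28 rose (63.6%), 1 fell and 15 did not pass, whereas 23.3% of all tested genes passed, 12.9% as higher and 10.5% as lower. The log2 difference was above 0 in 43 of the 44 genes, against 49.3% of all genes. The median difference of the 44 genes was 0.27, or 1.21-fold, beside -0.003 over all genes. Only Ccna2, Top2a, Anln and Mki67 rose by at least 1.5-fold (background 1.33%), and 0 of the 44 fell by that much (background 0.697%). The 4 acLDL arrays lay above the 4 unloaded arrays in 26 genes (background 14.0%) and below them in Smc4 (background 11.6%).

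**Figure D1:**
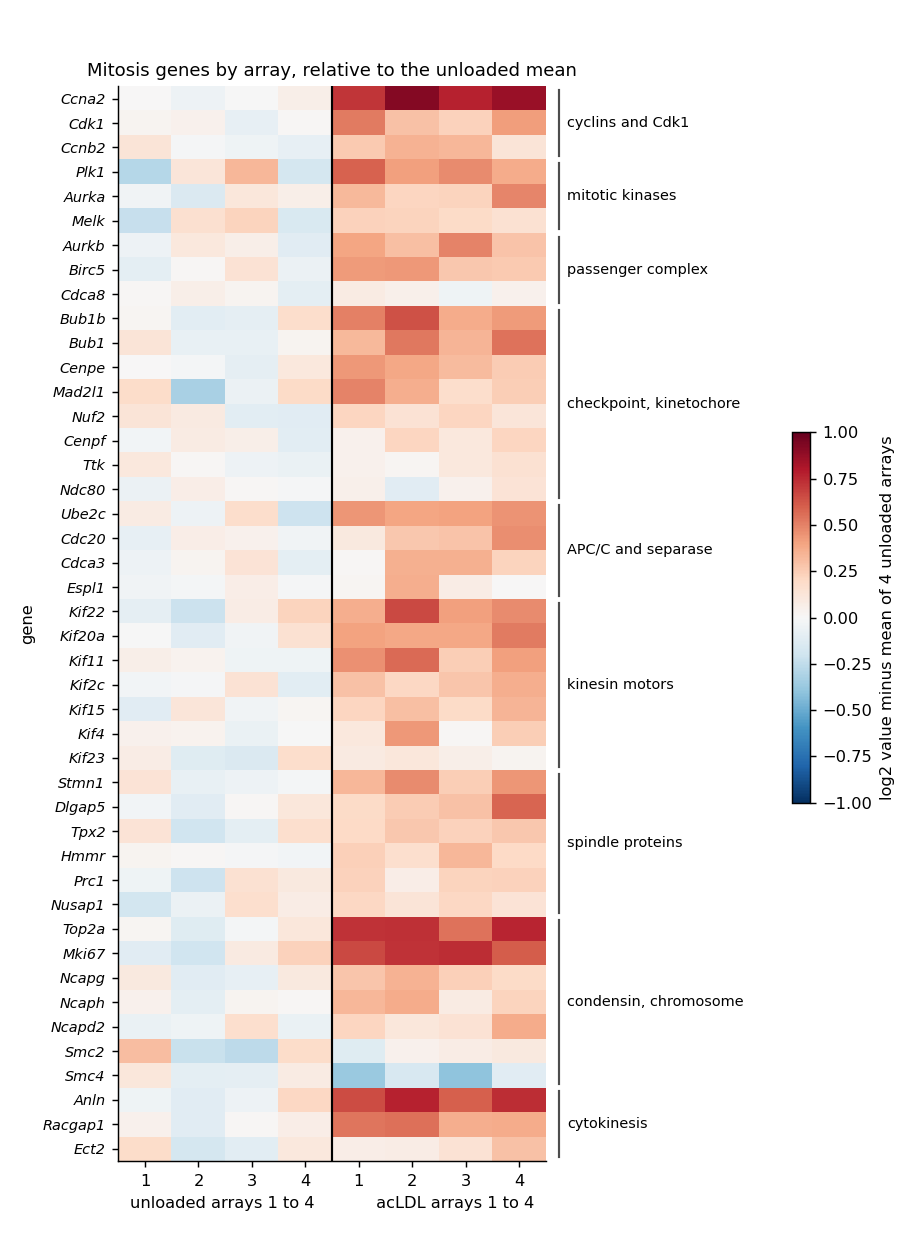
Log2 value of each of the 44 genes (rows, by role) on the 4 unloaded and 4 acLDL arrays (columns), minus the mean of that gene on the 4 unloaded arrays; red is higher and blue is lower. The acLDL columns are red for 43 of 44 genes on average, most strongly for Ccna2, Top2a, Anln and Mki67, and blue for Smc4.

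RNA came from whole cultures, so that a larger share of dividing cells and more RNA per cell cannot be told apart. Many of these genes gave a weak signal. The 95th percentile of 1027 olfactory receptor genes, taken as a measure of background, was 6.12 on the log2 scale. The mean level was above it in 24 genes and below it in 20. Of the 28 genes that rose, 15 belonged to the former and 13 to the latter. Changes of dim genes are compressed by the array processing, so that their sizes may be understated. Among all genes above that level, 19.6% rose.

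Cyclins and their kinase rose without exception among the 3 measured. Ccna2, encoding cyclin A2, which drives S phase and entry into mitosis, read 6.11, 6.05, 6.10 and 6.16 on unloaded arrays 1 to 4 and 6.82, 7.02, 6.87 and 6.97 on acLDL arrays 1 to 4. Every acLDL array was higher by at least 0.66, and the spread within each group was small. The difference was 0.82 ± 0.06 (log2, SE), a 1.76-fold rise (limma adjusted p = 2.05e-06, n = 4 per group). The unloaded mean of Ccna2, 6.10, was just below the olfactory 95th percentile. Cdk1, the kinase that triggers mitosis, read 6.59, 6.60, 6.48 and 6.57 in unloaded and 7.08, 6.85, 6.79 and 6.98 in acLDL cells. Its groups did not overlap, and the difference was 0.37 ± 0.07 (log2, SE; limma adjusted p = 0.00213). Ccnb2, encoding cyclin B2, rose by 0.26 ± 0.07 (log2, SE; limma adjusted p = 0.0152) although its groups overlapped: unloaded array 1 and acLDL array 4 both read 6.51. The Ccnb2 call was lost without acLDL array 2 (adjusted p = 0.0519) and without unloaded arrays 2 and 3 (0.0685).

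Of 3 mitotic kinases outside the checkpoint Plk1 and Aurka rose and Melk did not pass. Plk1, the polo-like kinase of spindle assembly, read 6.40, 6.81, 7.02 and 6.51 on the unloaded arrays and 7.28, 7.10, 7.16 and 7.06 on the acLDL arrays. The unloaded values were widely spread, with arrays 2 and 3 close to the acLDL range. The difference was 0.46 ± 0.11 (log2, SE; limma adjusted p = 0.00873), and it was 0.24 with an adjusted p of 0.0696 without unloaded arrays 1 and 4, but 0.69 without arrays 2 and 3. Aurka, the kinase of spindle poles, went from 6.67 ± 0.11 to 6.97 ± 0.13 (log2, SD, n = 4; limma adjusted p = 0.0112). Melk, a kinase expressed in cycling cells, did not pass, at 6.19 ± 0.22 and 6.39 ± 0.04 (log2, SD, n = 4; limma adjusted p = 0.150). The Melk difference was 0.007 without unloaded arrays 1 and 4, and 0.388 without arrays 2 and 3, where it passed (limma adjusted p = 0.00223).

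The chromosomal passenger complex corrects faulty attachments and later directs cell cleavage, and its members did not move alike. Its kinase gene Aurkb read 6.60, 6.76, 6.71 and 6.54 in unloaded and 7.05, 6.95, 7.15 and 6.94 in acLDL cells, a rise of 0.37 ± 0.07 (log2, SE; limma adjusted p = 0.00197). Birc5, encoding survivin, rose by 0.35 ± 0.07 (log2, SE; limma adjusted p = 0.00327), from 5.67 ± 0.11 to 6.02 ± 0.09 (log2, SD, n = 4). For both genes the groups did not overlap. Cdca8, encoding borealin, stood at 5.84 ± 0.07 and 5.87 ± 0.05 (log2, SD, n = 4) and did not pass, with a difference of 0.03 ± 0.06 (SE). The scaffold gene Incenp, picked after its value was seen, differed by 0.10 ± 0.08 (log2, SE) and did not pass either.

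Of 8 genes of the spindle checkpoint and the kinetochore 4 rose, 0 fell and 4 did not pass. Bub1b, whose product BubR1 inhibits the anaphase-promoting complex, read 6.35, 6.22, 6.24 and 6.50 in unloaded and 6.83, 6.96, 6.70 and 6.75 in acLDL cells. All acLDL arrays were above all unloaded arrays, with a difference of 0.48 ± 0.08 (log2, SE; limma adjusted p = 0.00058). The kinase gene Bub1 rose by 0.43 ± 0.08 (log2, SE; limma adjusted p = 0.000896) and Cenpe, a kinetochore motor gene, by 0.35 ± 0.07 (log2, SE; limma adjusted p = 0.00166), both from levels below the olfactory 95th percentile. Mad2l1, encoding the checkpoint protein Mad2, rose by 0.32 ± 0.11 (log2, SE; limma adjusted p = 0.0485) with overlapping groups. Its call was lost in 9 of 19 alternatives, and the highest adjusted p, 0.334, came without unloaded arrays 2 and 3.

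The 4 genes of this role that did not pass were Ndc80, Nuf2, Ttk and Cenpf. Ndc80 and Nuf2, which form the microtubule-binding end of the Ndc80 complex, differed by 0.03 ± 0.07 and 0.18 ± 0.07 (log2, SE), and neither passed. The other subunit genes of that complex, Spc24 and Spc25, picked after their values were seen, differed by 0.04 ± 0.07 and 0.06 ± 0.07 (log2, SE) and did not pass. Ttk, encoding the checkpoint kinase Mps1, and Cenpf, encoding a large kinetochore protein, differed by 0.08 ± 0.06 and 0.14 ± 0.07 (log2, SE) and did not pass. The unloaded means of Ttk, Cenpf, Ndc80 and Nuf2 were between 4.67 and 5.60, below the olfactory 95th percentile.

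Among genes of the anaphase-promoting complex and of chromatid separation, Ube2c and Cdc20 rose, and Cdca3 and Espl1 did not pass. Ube2c, encoding the ubiquitin-conjugating enzyme of the complex, read 6.85, 6.72, 6.94 and 6.56 in unloaded and 7.21, 7.16, 7.17 and 7.22 in acLDL cells. The acLDL arrays lay close together and above all unloaded arrays, at 0.43 ± 0.08 (log2, SE; limma adjusted p = 0.00145). Cdc20, encoding its mitotic activator, rose by 0.28 ± 0.08 (log2, SE; limma adjusted p = 0.0175), and its adjusted p was 0.0597 without acLDL array 4 and 0.107 without unloaded arrays 1 and 4. Cdca3, whose product promotes entry into mitosis, was close to the threshold at 0.24 ± 0.08 (log2, SE; limma adjusted p = 0.0594). It passed in 6 of 19 alternatives. Espl1, the separase gene, differed by 0.12 ± 0.08 (log2, SE; limma adjusted p = 0.335), and acLDL array 2, at 6.74, stood above the other acLDL arrays at 6.38 to 6.45.

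Of 7 kinesin genes, which encode motors that move along microtubules, 5 rose and 2 did not pass. All 5 that rose had a mean level below the olfactory 95th percentile, and among the 7 only Kif23 was above it. Kif22, a motor on chromosome arms, read 5.69, 5.57, 5.86 and 6.01 in unloaded and 6.15, 6.44, 6.19 and 6.26 in acLDL cells. Its difference was 0.48 ± 0.09 (log2, SE; limma adjusted p = 0.0022). Kif11, which pushes the spindle poles apart, rose from 4.85 ± 0.05 to 5.27 ± 0.13 (log2, SD, n = 4; limma adjusted p = 0.000934). Kif15, a motor with a related task, rose by 0.26 and the microtubule depolymerase gene Kif2c by 0.28, and both calls were lost without unloaded arrays 1 and 4 (adjusted p = 0.0636 and 0.0612). Kif20a and Kif23 encode motors of the central spindle and did not move alike. Kif20a rose by 0.42 ± 0.07 (log2, SE; limma adjusted p = 0.000697), whereas Kif23 stood at 6.71 ± 0.16 and 6.78 ± 0.04 (log2, SD, n = 4) and did not pass. The Kif23 difference was 0.20 without unloaded arrays 1 and 4, where it passed (limma adjusted p = 0.0456). Without unloaded arrays 2 and 3 it was -0.06 and did not pass. Kif4, a chromosome-bound motor, did not pass at 0.20 ± 0.08 (log2, SE; limma adjusted p = 0.100).

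**Figure D2:**
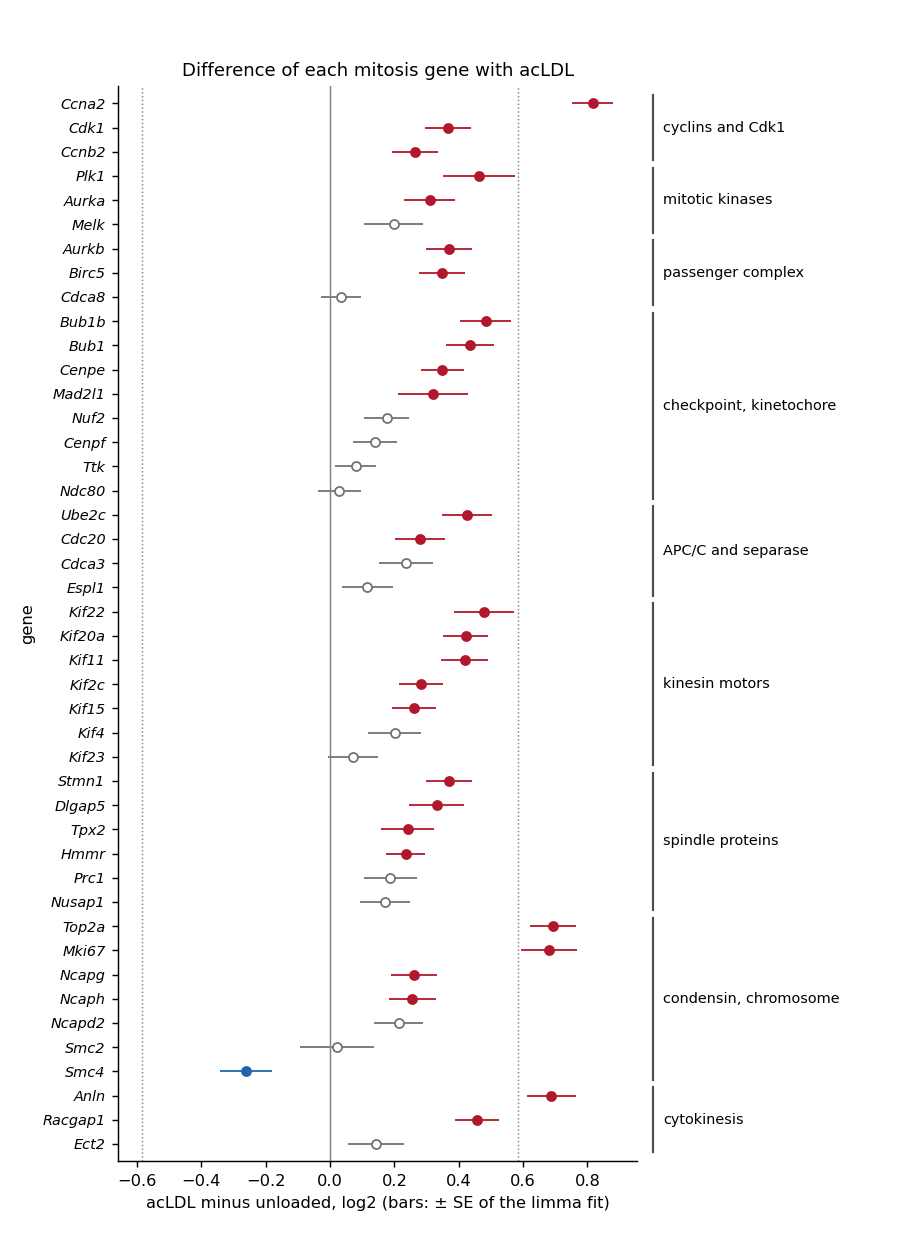
Difference of each gene, acLDL minus unloaded on the log2 scale, with the SE of the limma fit (n = 4 arrays per group). Filled red points rose, the filled blue point (Smc4) fell and open points did not pass an adjusted p of 0.05; dotted lines mark 1.5-fold, which Ccna2, Top2a, Anln and Mki67 exceed.

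Of 6 genes of spindle microtubule proteins 4 rose and 2 did not pass. Stmn1, encoding a protein that destabilises microtubules and is kept inactive in mitosis by phosphorylation, read 8.25, 8.04, 8.06 and 8.09 in unloaded and 8.44, 8.58, 8.36 and 8.55 in acLDL cells. The difference was 0.37 ± 0.07 (log2, SE; limma adjusted p = 0.00208), and a second Stmn1 probe set gave 0.36 ± 0.08 (log2, SE). Dlgap5, which stabilises spindle fibres, rose by 0.33 ± 0.09 (log2, SE; limma adjusted p = 0.013), with an adjusted p of 0.0724 without unloaded arrays 2 and 3. Hmmr, encoding a hyaluronan receptor that also binds the spindle, rose by 0.23 ± 0.06 (log2, SE; limma adjusted p = 0.0123), from 3.93 ± 0.03 to 4.16 ± 0.07 (log2, SD, n = 4), which is far below the olfactory 95th percentile.

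Tpx2, which activates Aurora A on the spindle, rose by 0.24 ± 0.08 (log2, SE; limma adjusted p = 0.0478), close to the threshold. Its unloaded arrays read 7.43, 7.09, 7.19 and 7.46 and its acLDL arrays 7.49, 7.56, 7.52 and 7.56. Unloaded arrays 1 and 4 lay just under the acLDL range and arrays 2 and 3 well below it. Without arrays 2 and 3 the difference was 0.09 with an adjusted p of 0.357, and the call was lost in 9 of 19 alternatives. The microtubule bundling genes Prc1 and Nusap1 did not pass, at 0.19 ± 0.08 and 0.17 ± 0.08 (log2, SE; limma adjusted p = 0.116 and 0.130).

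Of 7 genes of condensin and chromosome structure 4 rose, 1 fell and 2 did not pass. Top2a, encoding the topoisomerase that untangles sister chromatids, read 6.21, 6.07, 6.17 and 6.30 in unloaded and 6.91, 6.92, 6.73 and 6.95 in acLDL cells. That was a 1.62-fold rise, 0.69 ± 0.07 (log2, SE; limma adjusted p = 1.78e-05). A second Top2a probe set was very dim, at 3.07 ± 0.06 and 3.22 ± 0.08 (log2, SD, n = 4). A pair of probe sets that the annotation shares between Top2a and Hibadh differed by 0.239 and 0.245 and were also dim, and all 3 pointed the same way as the probe set used. With the mean of its probe sets Top2a rose by 0.42. Mki67, encoding the Ki-67 protein that coats mitotic chromosomes, read 6.28, 6.19, 6.48 and 6.62 in unloaded and 7.05, 7.11, 7.13 and 7.0 in acLDL cells, a 1.60-fold rise of 0.68 ± 0.09 (log2, SE; limma adjusted p = 9.23e-05).

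Condensin, the ring that compacts mitotic chromosomes, did not move as a whole. Its genes Ncapg and Ncaph, of the form named condensin I, rose by 0.26 ± 0.07 and 0.26 ± 0.07 (log2, SE; limma adjusted p = 0.0166 and 0.0207). For Ncapg the adjusted p was 0.0561 when acLDL array 2 was left out, 0.0512 when unloaded array 2 was, and 0.127 when unloaded arrays 2 and 3 were. The Ncaph call was lost without acLDL array 1, acLDL array 2, unloaded array 2 or unloaded arrays 2 and 3, at adjusted p values between 0.0604 and 0.0855. Ncapd2, the remaining condensin I gene, did not pass at 0.21 ± 0.08 (log2, SE; limma adjusted p = 0.0593).

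Smc2 and Smc4 encode the core of the ring in all condensins. Smc4 read 7.87, 7.66, 7.67 and 7.84 in unloaded and 7.39, 7.60, 7.36 and 7.65 in acLDL cells. All acLDL arrays were below all unloaded arrays, but by only 0.02 at the closest, and the fall was 0.26 ± 0.08 (log2, SE; limma adjusted p = 0.0324). That call was lost without any 1 of acLDL arrays 1 and 3 and unloaded arrays 1 and 4, with adjusted p values of 0.0774 to 0.101, without unloaded arrays 1 and 4 together (0.211), and with all deposited probe sets (0.0602). Smc2 read 7.16, 6.63, 6.59 and 7.03 in unloaded and 6.73, 6.89, 6.92 and 6.95 in acLDL cells. Unloaded arrays 1 and 4 were above the acLDL range and arrays 2 and 3 below it, and the difference was 0.02 ± 0.11 (log2, SE). It was 0.26 without unloaded arrays 1 and 4, where it passed (adjusted p = 0.0322), and -0.22 without arrays 2 and 3, where it did not (0.0727), so that its sign turned with the arrays used.

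Genes of the condensin II form stood outside the 45 and were not higher. Ncapg2 fell by 0.48 ± 0.08 (log2, SE; limma adjusted p = 0.000415), from 7.66 ± 0.10 to 7.17 ± 0.12 (log2, SD, n = 4). Ncaph2 and Ncapd3, picked after their values were seen, differed by 0.05 ± 0.08 and 0.02 ± 0.07 (log2, SE) and did not pass.

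**Figure D3:**
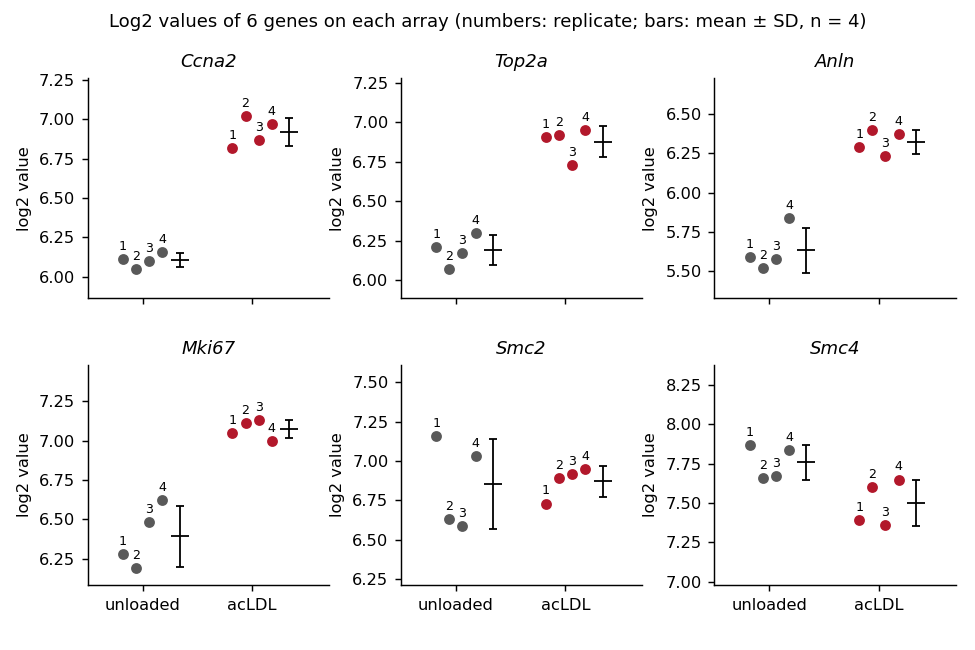
Log2 values on each array for 4 genes that rose by at least 1.5-fold (Ccna2, Top2a, Anln and Mki67) and for the core condensin genes Smc2 and Smc4; digits give the replicate and bars the mean ± SD (n = 4). The groups lie apart in the 4 risen genes, nearly touch in Smc4, and in Smc2 unloaded arrays 1 and 4 lie above and arrays 2 and 3 below the acLDL arrays.

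Cytokinesis genes gave another of the largest rises. Anln, encoding anillin, which holds the contractile ring together, read 5.59, 5.52, 5.58 and 5.84 in unloaded and 6.29, 6.40, 6.23 and 6.37 in acLDL cells. The rise was 0.69 ± 0.08 (log2, SE; limma adjusted p = 3.26e-05), or 1.61-fold, from a level below the olfactory 95th percentile. Racgap1, a subunit of centralspindlin, read 6.80, 6.64, 6.77 and 6.82 in unloaded and 7.29, 7.31, 7.12 and 7.13 in acLDL cells, a rise of 0.46 ± 0.07 (log2, SE; limma adjusted p = 0.000362). Its partner in that complex is Kif23, which did not pass and whose difference depended on the unloaded arrays used, as given above. Ect2, the activator of RhoA at the cleavage site, read 6.69, 6.33, 6.40 and 6.61 in unloaded and 6.57, 6.58, 6.65 and 6.80 in acLDL cells, with overlapping groups, and did not pass at 0.14 ± 0.09 (log2, SE; limma adjusted p = 0.265). The Ect2 difference was 0.285 without unloaded arrays 1 and 4, where it passed (limma adjusted p = 0.0278), and 0.002 without arrays 2 and 3.

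The mean over the 44 genes was 6.05, 5.99, 6.05 and 6.06 on unloaded arrays 1 to 4 and 6.32, 6.36, 6.29 and 6.35 on acLDL arrays 1 to 4. Every acLDL array was above every unloaded array. Unloaded array 2 was the lowest of its group in 18 genes and acLDL array 2 the highest of its group in 17, against 23.2% and 22.8% of all genes. The median SD of the 44 genes was 0.106 in unloaded and 0.098 in acLDL cells, and 0.108 and 0.087 over all genes.

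Unloaded arrays 1 and 4 stood apart from arrays 2 and 3 across all tested genes, and the shares in the 44 genes were not far from those. Their array medians were 6.44 and 6.45, beside 6.52 and 6.54 on arrays 2 and 3. The cause was not tested, and the limma model takes the 4 unloaded arrays as independent. Arrays 1 and 4 were both above arrays 2 and 3 in 16 of the 44 genes (36.4%; 28.9% of all genes), among them Smc2, Smc4, Ect2, Kif23, Tpx2 and Mad2l1. Both were below them in 11 (25.0%; 27.3% of all genes), among them Plk1, Melk, Aurkb and Birc5. Without unloaded arrays 1 and 4 there were 27 rises, 24 of them among the 28, and without arrays 2 and 3 there were 25 rises, 22 of them among the 28. Arrays also differed in how signal followed gene length. Across genes above the olfactory 95th percentile, the Spearman correlation of an array's deviation with genomic span was 0.23 and 0.21 on unloaded arrays 1 and 4, and between -0.20 and -0.01 on the other 6. The 44 genes had a median span of 30.0 kb beside 17.7 kb for all tested genes. After removal of the trend with span, 27 of the 28 genes remained called and the median difference was 0.27.

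Another 82 genes of mitosis, kinetochores and the spindle, outside the 45, were higher in part. Of 79 measured 29 rose (36.7%), 4 fell (5.06%) and 46 did not pass, beside 12.9% and 10.5% of all genes. The median log2 difference was 0.16. Parpbp, a replication-linked partner of PARP1, rose by 0.48 ± 0.07 and Knl1, a kinetochore scaffold gene, by 0.47 ± 0.11 (log2, SE; limma adjusted p = 0.000148 and 0.00819), both from levels below the olfactory 95th percentile. Hmgb2, a chromatin protein gene often used as a marker of cycling cells, fell by 0.51 ± 0.07 (log2, SE; limma adjusted p = 9.82e-05), from 7.93 ± 0.07 to 7.41 ± 0.09 (log2, SD, n = 4), and Ncapg2 fell as given above. After centring each array on its median 17 of the 79 rose, and after repeated quantile normalisation 44. Without unloaded array 2 there were 18 rises and without acLDL array 2 there were 19, and without unloaded arrays 2 and 3 there were 17.

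Of 17 other genes of the anaphase-promoting complex and its regulators, all above the olfactory 95th percentile, 4 rose (23.5%), 0 fell and 13 did not pass. That share is near the 19.6% that rose among all genes above that level. Without unloaded arrays 2 and 3 there were 2 rises and 1 fall. Ube2s, which extends the ubiquitin chains that Ube2c starts, rose by 0.58 ± 0.08 and the subunit gene Anapc13 by 0.56 ± 0.06 (log2, SE; limma adjusted p = 0.000199 and 3.18e-05). Cohesin holds sister chromatids together and also shapes chromatin in cells that do not divide. Of 14 cohesin and cohesin regulator genes 1 rose, 5 fell (35.7%, beside 10.5% of all genes) and 8 did not pass, with a median log2 difference of -0.09. Without unloaded arrays 1 and 4 there were 3 falls, and without 1 array 4 to 6 falls and 0 to 2 rises. The loader gene Nipbl fell by 0.39 ± 0.07 and Wapl, the releasing factor gene, by 0.37 ± 0.07 (log2, SE; limma adjusted p = 0.00136 and 0.00132).

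Genes of cell cycle transcription factors and their partners did not move as a group, and their action on these promoters was not tested. Of 24 measured 6 rose (25.0%), 4 fell (16.7%) and 14 did not pass, beside 12.9% and 10.5% of all genes. The olfactory 95th percentile was exceeded by 22 of the 24, and 19.6% of all genes above that level rose. Foxm1, the activator of G2 and M phase genes, rose by 0.43 ± 0.07 (log2, SE; limma adjusted p = 0.000517), from 5.84 ± 0.11 to 6.27 ± 0.06 (log2, SD, n = 4). Myc rose by 0.69 ± 0.07 (log2, SE; limma adjusted p = 2.47e-05). Rb1, the retinoblastoma gene that restrains cell cycle genes, fell by 0.43 ± 0.07 (log2, SE; limma adjusted p = 0.000398). Nfyb, a subunit of the factor that binds CCAAT boxes, fell by 0.43 ± 0.08 (log2, SE; limma adjusted p = 0.00127). Mybl2, the gene of B-Myb, picked after its value was seen, did not pass at 0.18 ± 0.06 (log2, SE; limma adjusted p = 0.0593).

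Genes upstream of mitosis split by role. Of 9 G1 cyclins, their kinases and Cdc25a 5 rose (55.6%), 0 fell and 4 did not pass. Over all genes 12.9% rose and 10.5% fell. Of the 9, 8 were above the olfactory 95th percentile, and 19.6% of all genes above it rose. Ccnd1, encoding cyclin D1, rose 1.71-fold, from 6.84 ± 0.10 to 7.61 ± 0.13 (log2, SD, n = 4; limma adjusted p = 1.49e-05), and Cdk6, Ccne1 and Cdk4 rose by 0.47, 0.41 and 0.38 on the log2 scale. Of 14 measured genes of CDK inhibitors and growth arrest 0 rose, 5 fell (35.7%) and 9 did not pass. Cdkn1a, the remaining gene of that list, was not among the tested genes. Ccng2, a cyclin linked to arrest, fell by 0.75 ± 0.07 and the antiproliferative gene Btg1 by 0.45 ± 0.06 (log2, SE; limma adjusted p = 6.41e-06 and 0.000163). The kinase inhibitor genes Cdkn1c and Cdkn1b fell by 0.40 ± 0.06 and 0.40 ± 0.07 (log2, SE; limma adjusted p = 0.000273 and 0.000699). Of 33 DNA replication genes 13 rose (39.4%), 1 fell and 19 did not pass, with a median of 0.18, led by Mcm2 and Mcm5 of the replicative helicase at 0.45 and 0.44. The replication gene that fell was Pcna, picked after its value was seen, by 0.19 ± 0.06 (log2, SE) with a limma adjusted p of 0.034. Without unloaded arrays 2 and 3 there were 8 rises among the replication genes.

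**Figure D4:**
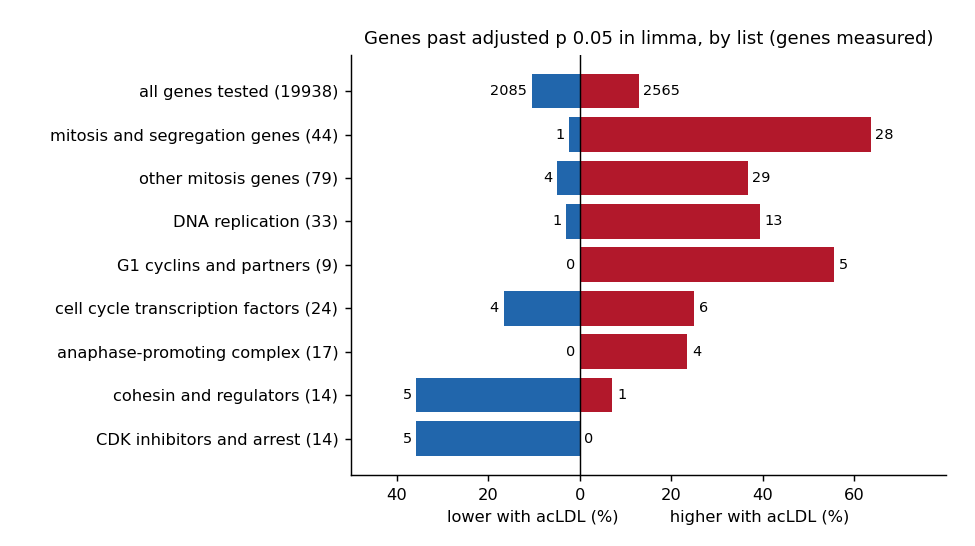
Share of the measured genes of each list (number in brackets) that rose (red, to the right) or fell (blue, to the left) at a limma adjusted p under 0.05, with the counts at the bar ends. Mitosis and segregation genes had 28 rises and 1 fall of 44, while CDK inhibitors and arrest genes had 5 falls and cohesin genes 5 falls against 1 rise.

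Genes that mark macrophages numbered 16: 9 rose (56.2%), 2 fell (12.5%), 5 were not called, and all but Cd163 stood above the olfactory 95th percentile. Over all genes 12.9% rose and 10.5% fell, and 19.6% rose among those above that percentile. The median log2 difference of this list was 0.265, close to the 0.272 of the 44 mitosis genes. The mean level of the list was 9.60 to 9.75 on unloaded and 9.89 to 9.95 on acLDL arrays. Fcgr1, Itgam, Fcgr3 and Adgre1 rose by 0.71, 0.63, 0.59 and 0.59 on the log2 scale. The 2 that fell were Cd14, by 0.33, and Ptprc, by 0.23 (log2; limma adjusted p = 0.00803 and 0.0103). Csf1r and Cd68 did not pass, at -0.002 and -0.09 (log2). Those last 4 genes were picked after their values were seen. Of 11 genes of macrophage growth signals 1 rose (9.09%), 2 fell (18.2%) and 8 did not pass, beside 12.9% and 10.5% of all genes, and leaving out 1 array gave 0 to 2 rises and 1 to 3 falls. Gata6 rose by 0.22, and Csf2rb, a shared cytokine receptor chain, and Il4ra fell by 0.29 and 0.23 on the log2 scale.

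Among markers of other cells Tfrc alone rose in the test over all genes. Of 10 fibroblast and mesothelial markers 0 rose and 2 fell, Col1a2 by 0.37 and Dcn by 0.26 on the log2 scale, and the mean level of the list was 7.86 to 7.98 on unloaded and 7.78 to 7.92 on acLDL arrays. Dcn, a stromal proteoglycan gene, read 10.74 ± 0.13 and 10.48 ± 0.09 (log2, SD, n = 4), so that its signal was bright in both groups. Of 10 neutrophil markers 0 rose and 3 fell (Mmp8, Ly6g and Camp by 0.37, 0.32 and 0.26), all from levels below the olfactory 95th percentile, with a list mean of 5.36 to 5.45 and 5.24 to 5.35. Of 10 mast cell and eosinophil markers 0 rose and 1 fell, Siglecf by 0.60, with a list mean of 5.33 to 5.44 and 5.28 to 5.32. Of 9 B cell markers 0 rose and 1 fell, Blk by 0.30, with a list mean of 5.72 to 5.86 and 5.75 to 5.91. Falls made up 20.0% of the fibroblast and mesothelial, 30.0% of the neutrophil, 10.0% of the mast cell and eosinophil and 11.1% of the B cell list. Over all genes 10.5% fell. The counts of falls in these lists moved with the arrays used. Neutrophil markers gave 1 fall without acLDL array 4 or without unloaded arrays 2 and 3. When 1 array was left out, falls numbered 1 to 3 for fibroblast and mesothelial, 1 to 2 for mast cell and eosinophil and 0 to 1 for B cell markers.

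Lymphoid and dendritic markers gave 0 calls in limma, in 8 T cell, 6 NK cell and 8 dendritic cell genes, and 0 of these had an unadjusted p under 0.05. Without unloaded arrays 1 and 4 there were 2 falls in the T cell list, 1 in the NK cell list and 1 in the dendritic cell list, and without arrays 2 and 3 there was 1 rise each in the T cell and dendritic cell lists. Their list means overlapped between groups, at 5.71 to 5.99 and 5.74 to 5.88, 4.77 to 4.88 and 4.72 to 4.83, and 5.63 to 5.87 and 5.66 to 5.74. Cd3e and Thy1 of the T cell list differed by -0.12 and -0.00, Gzma and Prf1 of the NK list by -0.12 and -0.02, and Siglech and Zbtb46 of the dendritic list by -0.15 and 0.00 (log2). Of 3 erythroid genes 1 rose, Tfrc, the transferrin receptor gene, which dividing cells and macrophages also use, by 0.30 on the log2 scale, with a list mean of 7.20 to 7.40 and 7.26 to 7.38. Cd22 and S100a8, the brightest B cell and neutrophil markers, differed by 0.06 and -0.03. The part of any of these cells in the values of the mitosis genes was not tested.

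Facts of the arrays bear on all of these values. Deposited values ran from 2.63 to 14.27, and arrays of a group correlated at Pearson r of 0.994 to 0.997 over the tested genes and arrays of different groups at 0.989 to 0.991, with 0 identical arrays. The median over tested genes was 6.49 ± 0.05 in unloaded and 6.50 ± 0.02 in acLDL arrays (SD, n = 4; two-sided exact permutation p = 0.571). The median of the olfactory receptor genes was 4.46 ± 0.04 and 4.38 ± 0.02 (SD, n = 4; exact permutation p = 0.0286, the smallest that 4 arrays against 4 allow, adjusted by Benjamini-Hochberg over 3 measures to 0.0857). The correlation with genomic span averaged 0.09 ± 0.15 and -0.09 ± 0.08 (SD, n = 4; exact permutation p = 0.114, adjusted 0.171).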

How the data were processed

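Biotin-labelled total RNA was measured on Affymetrix arrays, per the labels' protocols. The authors deposited log2 values made with RMA, per the submitters' processing notes; its version, its settings and the set of arrays normalised together are not given in the sources used. The labels gave each array its group and replicate number.

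Of 35557 deposited probe sets 23410 were in the annotation, 21789 of them with 1 symbol and 1621 with several. Of the 21789, 21698 were found by Entrez identifier in the RefSeq table of GRCm38.p6, and 0 symbols changed. The brightest probe set of each gene gave 19938 genes. No coordinates are given for probe sets, as the build behind the annotation is not stated. A limma 3.58.1 model under R 4.3.3, two-sided and without a block, gave differences and p-values, adjusted by Benjamini-Hochberg over all genes with a threshold of 0.05. The SE is limma's moderated one. Array-wide values were compared with an exact permutation test. Precision is limited by 4 arrays per group, and the median SE was 0.074.

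The 45 genes and the 17 comparison lists (294 entries, 281 measured) were chosen with earlier results of these data known, so that counts over them are descriptions. All 45 genes could be named. From each list up to 4 genes with the largest difference past the threshold were named, and from lists of other cells also the gene with the smallest p and the brightest gene; exceptions are marked. Alternatives were median centring, a replicate block, repeated quantile normalisation, a filter on dim genes, the mean of probe sets, a trended robust prior, array weights, removal of a trend with genomic span (lowess, fraction 0.3, statsmodels 0.14.6), leaving out each array, leaving out a pair of unloaded arrays and, added later, all deposited probe sets. On simulated data for acLDL minus unloaded, with 19938 genes of which 50 were changed at each size, limma recovered 44% of genes changed 1.25-fold, 96% at 1.5-fold, 98% at 2-fold and 100% at 3-fold, with 8 false calls. The simulated data held a smaller share of changed genes than the 23.3% called in the data. The recovery in the simulation therefore does not measure that of the real test. Python 3.11.15 with matplotlib 3.10.9 drew the figures.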

Additional observations from a re-analysis of the deposited data

Results flagged for a closer look

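In 3 of 96 groups of 4 arrays examined (44 genes and 4 array-wide measures in each condition), 1 array stood apart from the other 3, where chance gives about 1 in 20. Kif20a on acLDL array 4 was high at 6.39, beside 6.25 to 6.27 on the other acLDL arrays. Ncapd2 on unloaded array 3 was high at 7.35, beside 7.12 to 7.14 on the other unloaded arrays, and without that array Ncapd2 passed the test (difference 0.27, limma adjusted p = 0.0187). Prc1 on acLDL array 2 was low at 6.11, beside 6.26 to 6.27 on the other acLDL arrays.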

How the results depend on the processing

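Across 19 other settings the log2 difference was above 0 in at least 41 of the 44 mitosis genes (23 of 24 under the filter on dim genes), and 18 of the 28 rises were called in every setting in which they were tested: Anln, Aurka, Aurkb, Birc5, Bub1, Bub1b, Ccna2, Cdk1, Cenpe, Hmmr, Kif11, Kif20a, Kif22, Mki67, Racgap1, Stmn1, Top2a and Ube2c. The median difference ran from 0.25 to 0.32. The number of rises ran from 23 to 30 when 1 array was left out and reached 35 after repeated quantile normalisation; the filter on dim genes left 24 of the 44 genes and gave 17 rises. The number of falls was 0 to 1 when 1 array was left out, and 0 without unloaded arrays 1 and 4 and with all deposited probe sets, an alternative chosen after seeing the data. That alternative also gave 4038 falls over all probe sets in place of 2085, with 35557 in place of 19938 tested; leaving out 1 array gave 2019 to 2594 rises and 1599 to 2045 falls over all genes. Of the other mitosis genes 16 rose under the dim filter, 17 after median centring, 44 after repeated quantile normalisation and 17 without unloaded arrays 2 and 3, with 18 to 26 rises and 2 to 5 falls when 1 array was left out and 2 falls without unloaded arrays 1 and 4. Of the replication genes 8 rose without unloaded arrays 2 and 3, and 9 to 15 when 1 array was left out; falls numbered 0 to 2 when 1 array was left out, 2 with the span trend removed, with the replicate block and without unloaded arrays 2 and 3, and 0 after median centring and without unloaded arrays 1 and 4. The cause of these shifts was not tested, apart from the smaller number of genes under the dim filter. With the replicate number as a block 29 mitosis genes rose, all 28 and Cdca3, and the median difference was 0.27. Deviations from the group means correlated at 0.107, -0.163, 0.301 and 0.135 between the groups for equal numbers 1 to 4. For unlike numbers they correlated at -0.329 to 0.306. These values do not settle whether arrays of equal number were paired, and the labels do not say. Signal near that of olfactory receptor genes limits 20 of the 44 genes.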
